A study of Mus musculus with 16 samples.

Results

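The genes described here are 10 genes of the circadian clock, taken by symbol from a table of 57010 genes. They are the repressors Per1, Per2 and Per3, the output factors Dbp and Tef, the nuclear receptors Nr1d1 and Nr1d2, and the activators Arntl (also named Bmal1), Npas2 and Clock. They were measured in microglia, the resident macrophages of the brain, isolated from the olfactory bulb (OB) of mice aged 2 months, in 16 libraries of rRNA-depleted total RNA. The 4 groups of 4 libraries each were WT females, WT males, APP-NL-G-F females and APP-NL-G-F males (KI in the labels). WT mice were C57BL/6J, and APP-NL-G-F mice were on the same background and carry 3 mutations linked to Alzheimer's disease in their own App gene, so the change is present in every cell of the animal and is not limited to microglia. Microglia were taken by magnetic sorting for CD11b after a warm papain digestion, and the comparison asks how OB microglia of the genotypes differ at an early age.

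The circadian clock is a feedback loop of transcription. ARNTL pairs with CLOCK or NPAS2 and switches on the Per, Nr1d and Dbp genes through E-boxes, PER proteins return to block that pair, and NR1D1 and NR1D2 (REV-ERB alpha and beta) repress Arntl through RORE sites, so that in most tissues Arntl runs opposite to Nr1d1, Nr1d2 and Dbp over the day. Per1 is in addition switched on within minutes by many stimuli, as immediate early genes such as Fos are. A clock is known to run in microglia, and a library made at one time catches one point of each animal's cycle. The mice were kept on a light/dark cycle, and the hour at which tissue was taken is not given in the sources used here.

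Library totals ran from 9052932 to 18117286 counts, with a median of 11926833. The labelled cell type was borne out by its markers: the 10 microglia genes fixed for this purpose, among them Cx3cr1, P2ry12 and Tmem119, summed to between 20370 and 24310 CPM (counts scaled to library size) in every library, against 383.7 to 703 CPM for 10 neuron genes and 69.69 to 230.3 CPM for 10 endothelial genes. The 6 astrocyte genes summed to 472.2 to 1154 CPM and the 6 border macrophage genes to 410.1 to 861.4 CPM. The sex labels matched Xist, which stood at 547 CPM or more in the 8 female libraries and at 0.448 CPM or less in the 8 male ones. App itself does not check the genotype label, since the knock-in keeps the gene in place (371 to 462 CPM in the 8 WT libraries, 388 to 423 CPM in the other 8). The labels number the libraries from 1 to 16, replicates 1 and 2 of each group being among the first 8, and do not say that each library came from its own mouse, so the p-values below measure the spread between libraries. In such bulk samples, fewer cells of a type and less RNA per cell cannot be told apart.

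Promoter sequences are shown for 5 members on which the results below turn: Per1 and Nr1d1, which differed between the genotypes, and Dbp, Tef and Arntl, which varied together or against each other. Each window runs from 250 bases before to 50 bases after a RefSeq gene start (table of build GRCm38.p6) and was placed on GRCm39 by its only exact match. In capitals are an E-box (CACGTG), a D-box (TTATGTAA or TTACGTAA, the site of DBP and TEF), a RORE (AGGTCA preceded by an A/T-rich stretch, the site of ROR and REV-ERB receptors) or a cAMP response element (CRE, TGACGTCA), searched on both strands. A match of letters is a description of the window and no evidence of binding, and a window without a match says nothing about sites elsewhere in the gene. The windows lie at chr11:68989525-68989824 on the plus strand (Per1), chr11:98666154-98666453 on the minus strand (Nr1d1), chr7:45354421-45354720 on the plus strand (Dbp), chr15:81686624-81686923 on the plus strand (Tef) and chr7:112806468-112806767 on the plus strand (Arntl).
Per1: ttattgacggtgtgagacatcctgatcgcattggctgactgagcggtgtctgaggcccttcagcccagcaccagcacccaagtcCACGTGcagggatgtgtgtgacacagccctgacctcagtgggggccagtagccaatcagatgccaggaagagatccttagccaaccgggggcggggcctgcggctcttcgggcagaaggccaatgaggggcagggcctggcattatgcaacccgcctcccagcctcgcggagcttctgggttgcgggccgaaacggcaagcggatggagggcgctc
Nr1d1: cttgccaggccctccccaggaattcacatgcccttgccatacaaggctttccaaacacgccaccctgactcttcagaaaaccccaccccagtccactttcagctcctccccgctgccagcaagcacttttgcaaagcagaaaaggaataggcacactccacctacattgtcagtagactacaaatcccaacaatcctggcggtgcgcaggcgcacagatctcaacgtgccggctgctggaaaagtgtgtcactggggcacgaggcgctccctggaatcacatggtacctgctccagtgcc
Dbp: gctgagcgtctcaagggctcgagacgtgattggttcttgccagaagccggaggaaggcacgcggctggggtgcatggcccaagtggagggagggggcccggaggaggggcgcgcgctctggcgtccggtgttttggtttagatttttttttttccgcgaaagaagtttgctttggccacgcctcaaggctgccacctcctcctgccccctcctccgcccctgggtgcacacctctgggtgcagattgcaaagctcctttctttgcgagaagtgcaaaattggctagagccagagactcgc
Tef: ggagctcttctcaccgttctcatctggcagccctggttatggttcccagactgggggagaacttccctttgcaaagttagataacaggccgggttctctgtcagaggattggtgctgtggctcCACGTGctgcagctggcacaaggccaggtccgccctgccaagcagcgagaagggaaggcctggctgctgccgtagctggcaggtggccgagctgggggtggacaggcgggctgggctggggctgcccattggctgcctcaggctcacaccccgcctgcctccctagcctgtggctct
Arntl: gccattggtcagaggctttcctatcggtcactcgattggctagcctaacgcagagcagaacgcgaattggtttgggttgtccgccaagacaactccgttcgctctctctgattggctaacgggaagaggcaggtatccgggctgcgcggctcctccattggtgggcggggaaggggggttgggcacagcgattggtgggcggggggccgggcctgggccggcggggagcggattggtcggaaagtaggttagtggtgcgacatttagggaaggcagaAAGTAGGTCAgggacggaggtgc

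In these windows Per1 held an E-box at -166 from the start site, Tef held an E-box at -127, and Arntl held a RORE at 27 bases after its start, with the letters AAGTAGGTCA. That Arntl window belongs to the second listed start and is shown for this match, and the window of the first listed start held none of the motifs. The Nr1d1 and Dbp windows held none of the motifs. Among the members not printed, Per3 held the D-box TTATGTAA at -205 and at -158, and no motif of these kinds was found for Nr1d2, Npas2 or Clock. A shortened CRE (TGACG, which the full CRE contains) stood at -246 in the Per1 window above and at -132 in the window of its second listed start. Of 32851 windows of the same length in the mouse table, 7.15% held the E-box, 0.938% the D-box TTATGTAA, 0.119% the D-box TTACGTAA, 0.219% the RORE, 1.79% the full CRE and 20.8% the shortened one. A RefSeq window was found for 9 of the 10 members, Per2 being the exception.

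All 10 members were detected in every library and passed the filter on low counts (5 counts or more in 50% or more of the 16 libraries), as did 18227 of the 57010 genes. Counts were divided by exonic length (RPKM), taken as the union of the exons of all transcripts in GENCODE on GRCm39. Per1 was the highest, at 19.5 ± 7.69 RPKM (SD, n = 16). Tef followed at 8.15 ± 0.77, Nr1d2 at 6.14 ± 1.13, Dbp at 5.71 ± 0.997, Clock at 4.34 ± 0.231 and Nr1d1 at 3.95 ± 0.895 RPKM. Lowest were Per2 at 2.67 ± 0.564, Per3 at 2.23 ± 0.44, Arntl at 1.76 ± 0.22 and Npas2 at 1.02 ± 0.285 RPKM. This order depends on the length used, which for Arntl joins 85 transcripts to 11573 bases. By CPM, Arntl (20.4 ± 2.55) stood beside Dbp (19.8 ± 3.46) and above Nr1d1 (12.8 ± 2.9). In the order by RPKM, the neighbours Nr1d2 and Dbp, Clock and Nr1d1, and Per2 and Per3 lay no further apart than the larger of their SDs. Clock was the steadiest member, with 69.47 to 82.81 CPM over all 16 libraries, while Per1 ran from 79.28 to 247.4 CPM and Npas2, the lowest, from 3.002 to 7.933 CPM. On the other strand, the gene span of Tmem165 (169 to 369 counts per library), introns included, covers 4047 exonic bases of Clock. That of Sphk2 (240 to 605 counts) covers 539 exonic bases of Dbp. The bases that are exonic in both genes of a pair were not counted, and the strand setting behind the counts is not stated. The part of reads from these neighbours in the levels and correlations of Clock and Dbp was not tested.

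Per1, the light- and stimulus-responsive PER repressor, was the member that differed most between the genotypes. In WT females it stood at 241.2, 200.7, 247.4 and 230.5 CPM, and in APP-NL-G-F females at 85.63, 89.1, 86.03 and 112.5 CPM. In WT males it stood at 124.5, 142.6, 165.2 and 206.5 CPM, and in APP-NL-G-F males at 79.28, 102.2, 131 and 139.3 CPM. The female groups were far apart, with no overlap, while the male groups overlapped and none of the 4 APP-NL-G-F males reached the WT male median. Over both sexes the log2 fold change was -0.90 (SE 0.147), or 1.87-fold lower, with an adjusted p of 0.000992 by edgeR's quasi-likelihood test with sex as a term, and an exact permutation of genotype within sex gave p = 0.00163. A gene was called at an adjusted p (FDR) under 0.1 and an absolute log2 fold change over 0.5. Per1, at chr11:68986035-69002300 on the plus strand (ENSMUSG00000020893), stayed called in all 29 alternative fits, with values between -0.98 and -0.84.

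No other member was called over both sexes. The count of 1 of 10 members, lower, stands beside 8.64% of all tested genes called in either direction, and the members' median log2 fold change was 0.03 against -0.001 over all tested genes. No member, against 1.29% of all genes, had genotype ranges that did not overlap. Per2 (-0.01, SE 0.141), Per3 (0.18, SE 0.117), Dbp (0.04, SE 0.0994), Tef (0.07, SE 0.0624), Nr1d2 (0.08, SE 0.122), Arntl (0.01, SE 0.0786) and Clock (0.00, SE 0.0444) gave log2 fold changes whose 95% intervals all included 0. The interval for Clock, -0.09 to 0.09, was the tightest. The mean of Nr1d1 hid opposite values in the sexes (-0.18, SE 0.153, adjusted p = 0.526 by edgeR), which are given below.

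Npas2, which can take the place of CLOCK as partner of ARNTL, was higher in APP-NL-G-F libraries by 0.47 on the log2 scale (SE 0.17), just under the fold needed for a call, with an adjusted p of 0.0935 by edgeR. It stood at 3.002, 3.699, 5.64 and 5.81 CPM in WT females and at 6.288, 6.493, 7.75 and 7.933 CPM in APP-NL-G-F females. In WT males it stood at 5.825, 4.05, 3.923 and 5.688 CPM and in APP-NL-G-F males at 7.4, 7.032, 3.526 and 5.621 CPM. The female groups did not overlap, and the male groups did. The value rested on the first libraries: it was 0.74 (adjusted p = 0.0135, edgeR) within libraries numbered 1 to 8 and 0.22 (adjusted p = 0.835) within those numbered 9 to 16. The summed level of 10 neuron genes was 383.7 to 535.3 CPM over the WT libraries and 474.8 to 703 CPM over the knock-in ones, and within groups the mean of that list had r = 0.73 with Npas2 over 16 libraries (adjusted permutation p = 0.194). Its part in the Npas2 difference was not tested.

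**Figure D1:**
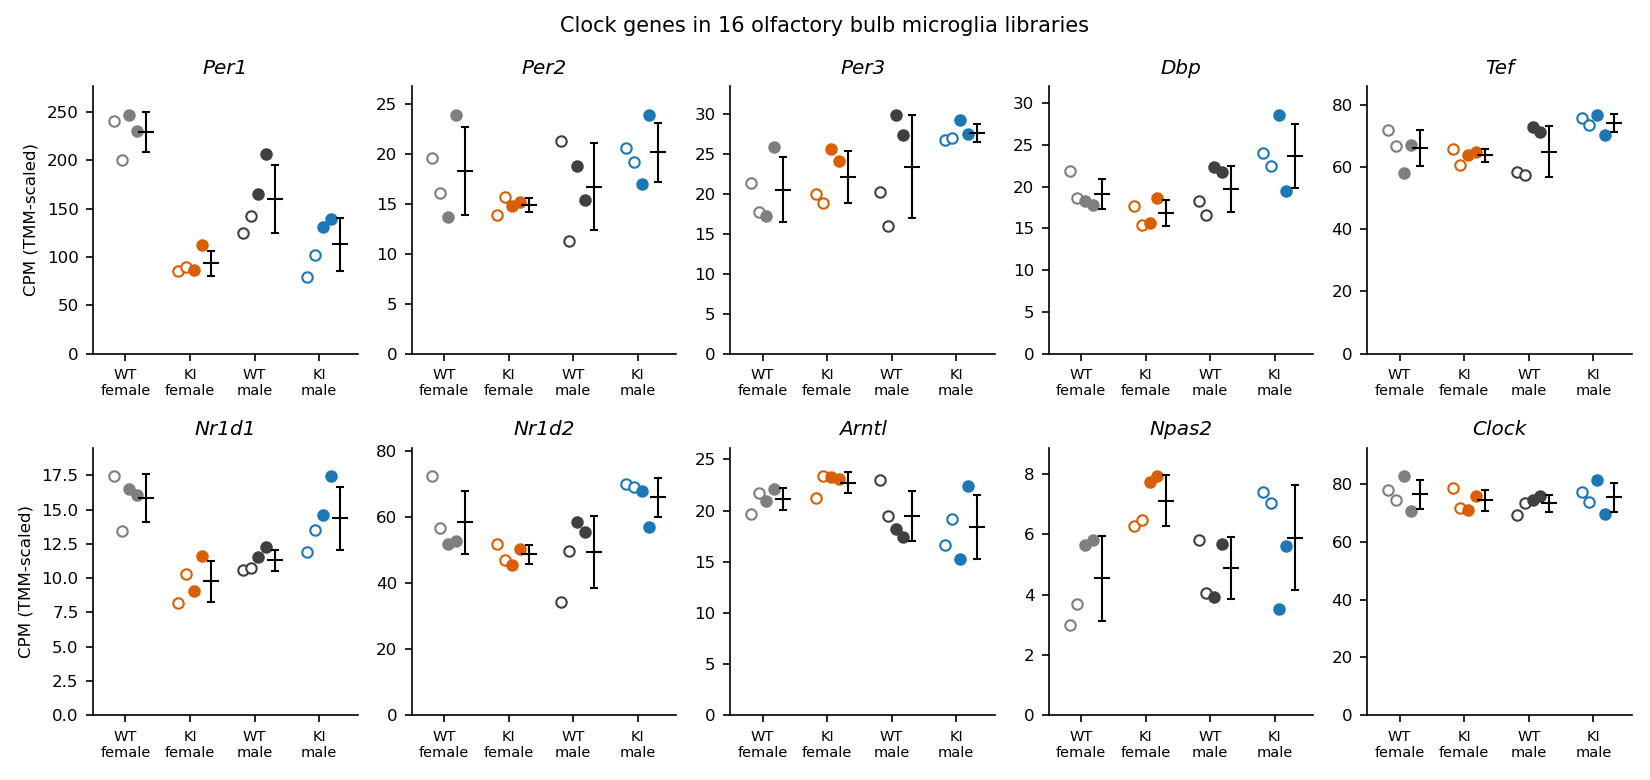
CPM (scaled by TMM, y axis, linear from 0) of each clock gene in every library, by group on the x axis. Open circles are libraries numbered 1 to 8, filled circles those numbered 9 to 16, and bars give the mean and SD of 4 libraries. Per1 in WT females (200.7 to 247.4 CPM) lies clear of APP-NL-G-F females (85.63 to 112.5 CPM), and Nr1d1 is high in WT females and APP-NL-G-F males.

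Within females, Per1 and Nr1d1 were lower in APP-NL-G-F microglia, and both were called. Per1 differed by -1.30 on the log2 scale (SE 0.162), a 2.47-fold lower level, with an adjusted p of 0.000512 by edgeR and the eighth smallest p of all 18227 genes (rank 8). Nr1d1, which encodes the heme-sensing repressor REV-ERB alpha, stood at 17.45, 13.41, 16.49 and 16.06 CPM in WT females and at 8.162, 10.3, 9.042 and 11.6 CPM in APP-NL-G-F females. Each APP-NL-G-F female lay below each WT female, a difference of -0.70 (SE 0.13), or 1.63-fold lower, with an adjusted p of 0.00349 by edgeR. Both calls were kept in all 26 alternative fits, at -1.39 to -1.24 for Per1 and -0.78 to -0.61 for Nr1d1. The 2 called members of 10 stand beside 7.15% of all tested genes, and the 3 with ranges that did not overlap (Per1, Nr1d1 and Npas2) beside 12.6%.

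The other members in females did not pass. Npas2 was at 0.65 (SE 0.236, adjusted p = 0.122), and 6 of 26 alternative fits called it, with an adjusted p of 0.0178 at the lowest. Per2 was at -0.30 (SE 0.179), Nr1d2 at -0.27 (SE 0.134), Dbp at -0.18 (SE 0.123), Arntl at 0.11 (SE 0.109), Per3 at 0.10 (SE 0.168), Tef at -0.05 (SE 0.0811) and Clock at -0.04 (SE 0.0634), all on the log2 scale in edgeR's fit of the 4 groups. For a single gene in 1 sex, 4 against 4 libraries allow 70 splits, and the smallest exact permutation p, 0.0286, was reached by Per1, Nr1d1 and Npas2.

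Within males no member was called, and the values of Nr1d1, Nr1d2, Dbp and Tef had the opposite sign to those in females. So did those of Per2, Arntl and Clock, whose 95% intervals included 0 in both sexes. In females the intervals of Dbp (-0.43 to 0.06) and Tef (-0.21 to 0.11) also included 0, and that of Nr1d2 ran from -0.53 to 0.00. Nr1d1 was at 10.62, 10.74, 11.54 and 12.29 CPM in WT males and at 11.91, 13.49, 14.61 and 17.43 CPM in APP-NL-G-F males. Nr1d2, which encodes REV-ERB beta, was at 34.09, 49.67, 58.5 and 55.36 CPM in WT males and at 69.83, 68.92, 67.67 and 56.99 CPM in APP-NL-G-F males. In both genes every APP-NL-G-F male lay above the WT male median, and 1 APP-NL-G-F male fell inside the WT range. The log2 fold changes were 0.35 (SE 0.131, adjusted p = 0.3 by edgeR) for Nr1d1 and 0.42 (SE 0.134, adjusted p = 0.226) for Nr1d2.

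Dbp, a PAR bZIP factor that carries the rhythm to output genes, was at 18.24, 16.65, 22.3 and 21.74 CPM in WT males and at 24.07, 22.42, 28.63 and 19.46 CPM in APP-NL-G-F males, a difference of 0.27 (SE 0.122, adjusted p = 0.409, edgeR). Its paralog Tef differed by 0.19 (SE 0.0811, adjusted p = 0.367). Per1 was at -0.50 (SE 0.161, adjusted p = 0.227), with the same sign as in females. These 5 members had an unadjusted p under 0.05, against 11.7% of all tested genes, while 0 were called, against 0.252% of all genes. Per2 (0.29, SE 0.179), Per3 (0.26, SE 0.167), Npas2 (0.28, SE 0.24), Arntl (-0.09, SE 0.111) and Clock (0.04, SE 0.0636) did not reach that level. By exact permutation in males, p for Nr1d1, Nr1d2, Per1, Tef and Dbp ran from 0.0571 to 0.143, none under 0.05. No member had male ranges that did not overlap, against 5.01% of all genes.

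The genotype-by-sex interaction called Nr1d1. Its genotype effect was lower in females than in males by -1.06 on the log2 scale (SE 0.184, 95% interval -1.42 to -0.70, adjusted p = 0.0942, edgeR), the fourth smallest p of all 18227 genes (rank 4) and one of 5 genes called, or 0.0274% of those tested. Unadjusted p-values under 0.05 were also found for Per1 (-0.81, SE 0.227), Nr1d2 (-0.68, SE 0.19), Per2 (-0.59, SE 0.253), Dbp (-0.45, SE 0.173) and Tef (-0.24, SE 0.115), with adjusted p-values between 0.331 and 0.834. That is 6 of 10 members against 5.94% of all tested genes, all 6 with a genotype effect lower in females than in males. Only Per1 and Nr1d1 among them were called lower within females. The members vary together within groups, so these are not independent results.

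Arntl (0.19, SE 0.155) and Npas2 (0.37, SE 0.337) had interaction values above 0, and Per3 (-0.16, SE 0.237) and Clock (-0.08, SE 0.0898) lay near 0 in units of their errors. None of these 4 reached an unadjusted p of 0.05. The Nr1d1 call had an adjusted p close to the limit: it was lost in 12 of 16 fits that left out 1 library, with values between -1.13 and -0.92, and an adjusted p of 0.406 at most. Within libraries 1 to 8 and 9 to 16 the Nr1d1 value was -1.03 and -1.08, and that of Per1 -0.80 and -0.80. The others were uneven between these sets: Nr1d2 was at -1.12 and -0.25, Dbp at -0.73 and -0.19, and Tef at -0.52 and 0.02.

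Markers of other cell types moved with the same contrasts. In females, 7 of 10 endothelial genes, 3 of 6 astrocyte genes and 2 of 6 pericyte and fibroblast genes were called lower and 2 of 10 neuron genes higher, while none of the 10 microglia genes, 5 oligodendrocyte genes, 6 border macrophage genes or 2 tested neutrophil genes was called, and no red blood cell gene passed the filter. Over all tested genes, 7.15% were called in females and 0.252% in males. In males 1 endothelial gene was called, higher. All 10 endothelial genes had male values above 0, 8 with an unadjusted p under 0.05 by edgeR (median 0.82). All 5 oligodendrocyte genes were above 0 and under that p (median 0.60). Of 10 neuron genes 9 were above 0 and 5 under that p, and of 10 microglia genes 0 were under it, against 11.7% of all tested genes. The 10 endothelial genes summed to 104.1 to 230.3 CPM in WT females, 91.16 to 112.9 CPM in APP-NL-G-F females, 69.69 to 83.16 CPM in WT males and 89.91 to 124.8 CPM in APP-NL-G-F males, and none was at 0 in all libraries. All 10 had an interaction below 0, with a median of -1.84, and 1 was called, against 0.0274% of all tested genes. Within groups, the mean log2 level of that list had r = -0.05 with Nr1d1 and 0.05 with Per1 over 16 libraries. Its part in the Nr1d1 interaction was not tested. Nr1d1 (chr11:98658752-98666188, minus strand, ENSMUSG00000020889) has 1891 exonic bases within the gene span of Thra, introns included, on the other strand. The limits given above for Clock and Dbp hold here too. Thra, a thyroid hormone receptor, had an interaction of -0.12 (SE 0.146) and a female difference of 0.13 (SE 0.103).

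**Figure D2:**
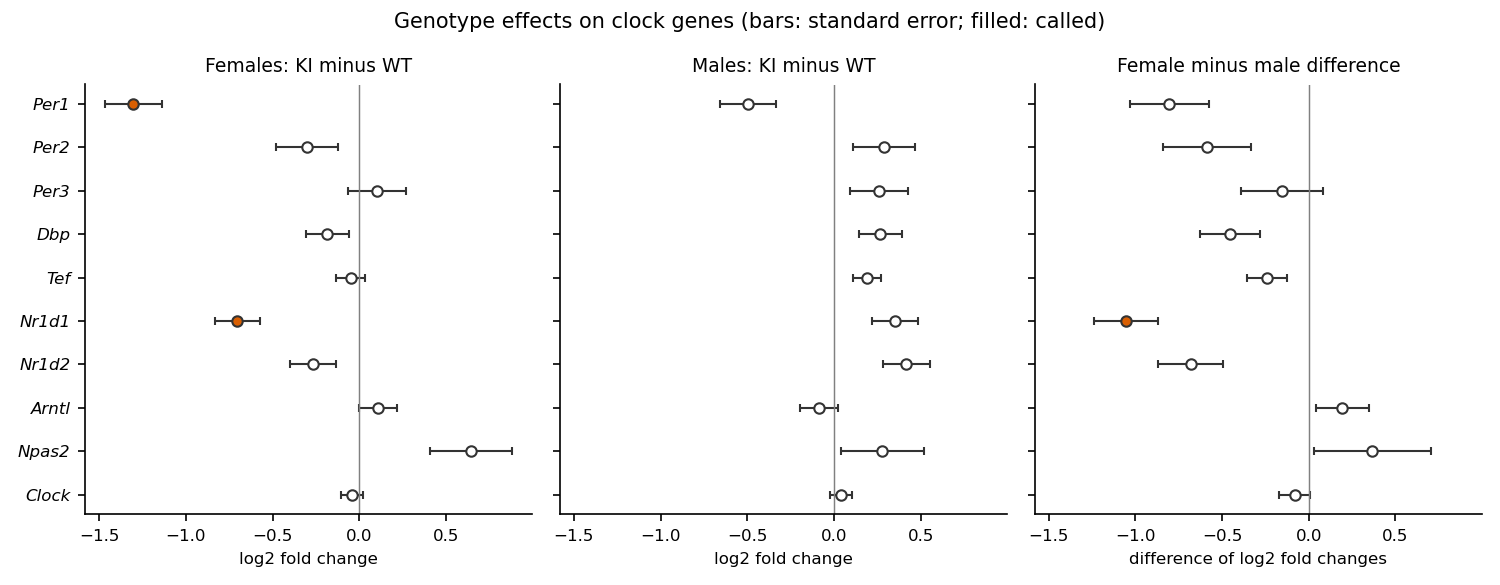
Log2 fold change of each clock gene (x axis) between APP-NL-G-F and WT microglia in females and in males, and the female minus male difference, from edgeR's fit of the 4 groups. Points are estimates, bars are standard errors and filled points were called. Nr1d1 lies at -0.70 in females, 0.35 in males and -1.06 in the difference, and Per1 is below 0 in both sexes.

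The sexes were also set beside each other within a genotype. These contrasts use the same libraries as those above and are no new evidence. In WT mice the female minus male difference was 0.53 for Per1 (SE 0.16, adjusted p = 0.178, edgeR) and 0.50 for Nr1d1 (SE 0.13, adjusted p = 0.103), and the Nr1d1 ranges of 13.41 to 17.45 and 10.62 to 12.29 CPM did not overlap. No member was called, against 0.938% of all tested genes. The 2 with an unadjusted p under 0.05 stand against 11% of all genes, and the 1 with ranges apart against 5.76%.

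In APP-NL-G-F mice the female minus male difference was -0.56 for Nr1d1 (SE 0.131), -0.49 for Dbp (SE 0.122), -0.44 for Per2 (SE 0.178), -0.44 for Nr1d2 (SE 0.134) and -0.22 for Tef (SE 0.0808), and 0.30 for Arntl (SE 0.109), each with an unadjusted p under 0.05 in edgeR's fit. Dbp was at 17.73, 15.45, 15.59 and 18.64 CPM in these females, all below the lowest male at 19.46 CPM. Arntl was at 21.21, 23.36, 23.25 and 23.05 CPM in APP-NL-G-F females and at 16.59, 19.19, 15.28 and 22.35 CPM in APP-NL-G-F males, where 1 male library overlapped the females. Ranges did not overlap for Per2, Per3, Dbp, Tef, Nr1d1 and Nr1d2, which makes 6 of 10 members against 1.66% of all tested genes. The 6 with an unadjusted p under 0.05 stand against 2.23%, and none was called, against 0.0549% of all genes, since the adjusted p-values ran from 0.717 to 1.

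Co-variation was then measured within groups, after subtracting each group's mean log2 CPM, over all 45 pairs of members and 16 libraries. Dbp and Arntl moved against each other, as did Nr1d2 and Arntl. Pearson's r was -0.79 for Dbp and Arntl (Spearman's rho -0.76, exact permutation within groups, Benjamini-Hochberg adjusted p = 0.0395 and 0.0295 for r and rho). For Nr1d2 and Arntl r was -0.74 (rho -0.69, adjusted permutation p = 0.0298 and 0.0356). Among WT males Arntl was highest in replicate 1 (22.96 CPM), where Nr1d2 was lowest (34.09 CPM). Among APP-NL-G-F males it was highest in replicate 4 (22.35 CPM), where Nr1d2 and Dbp were lowest (56.99 and 19.46 CPM).

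Dbp and Tef rose and fell together, with r = 0.75 (rho 0.81, adjusted permutation p = 0.0366 and 0.0274). By rank alone, Nr1d2 also went with Dbp (rho 0.74, adjusted permutation p = 0.0343) and with Tef (rho 0.79, adjusted p = 0.0356), their r values of 0.64 and 0.75 having an adjusted p of 0.0715 each. Per3 and Tef had r = 0.76 (adjusted permutation p = 0.164). Leaving out the 2 libraries farthest from the median of the first gene of a pair gave -0.68 for Dbp and Arntl, -0.67 for Nr1d2 and Arntl, and 0.81 for Dbp and Tef. Within libraries 1 to 8 and 9 to 16 the values were -0.39 and -0.90, -0.82 and -0.78, and 0.96 and 0.46. For each r within a set, here and below, deviations were taken from the mean of a group's 2 libraries in that set. Each such r thus rests on 1 difference in each of 4 groups and leaves out any shift between the sets.

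Clock did not vary with Arntl, its partner in the activating pair, but against it: r was -0.80 (rho -0.85, adjusted permutation p = 0.00508 and 0.00691), at -0.90 in libraries 1 to 8 and -0.78 in 9 to 16. It went with Dbp instead (r = 0.68, adjusted permutation p = 0.0715; rho 0.71, adjusted p = 0.0374). The range behind these values was small, since Clock stayed within 0.12 of its group means on the log2 scale. Within groups, Clock also had r = 0.69 with the mean log2 level of the 10 microglia genes and Arntl had r = -0.58 (adjusted permutation p = 0.194 and 0.563 over 120 such pairs). In libraries 1 to 8 and 9 to 16 that r was 0.98 and 0.90 for Clock, and -0.90 and -0.94 for Arntl. The part of microglial RNA content in these values was not tested. Npas2 and Arntl had r = 0.40, and Npas2 and Clock -0.28, neither passing.

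Per1 and Nr1d1 varied together, and their r was 0.83 (rho 0.86, adjusted permutation p = 0.000544 and 0.00068), with 0.71 in libraries 1 to 8 and 0.83 in libraries 9 to 16, and between 0.78 and 0.87 whichever library was left out. The r of Nr1d1 with its paralog Nr1d2 was 0.05, with Dbp 0.07 and with Tef 0.04, while Per1 had r = 0.30 with Dbp, 0.27 with Tef, 0.25 with Nr1d2, 0.42 with Per3 and -0.04 with Per2, none of them passing. Among the 21 pairs within the set of Per1, Per2, Per3, Dbp, Tef, Nr1d1 and Nr1d2, 18 had r above 0 with a median of 0.3. An r of that size is not rare: Dbp, at 0.30 with Per1, ranked 1941 from the highest of 9410 genes. Of those genes, with a mean of at least 3 log2 CPM, 41.4% had a larger absolute r with Per1. Among the 21 pairs between that set and Arntl, Npas2 and Clock, 13 had r below 0 with a median of -0.09. Over all 45 pairs, 5 passed by r and 8 by rho.

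**Figure D3:**
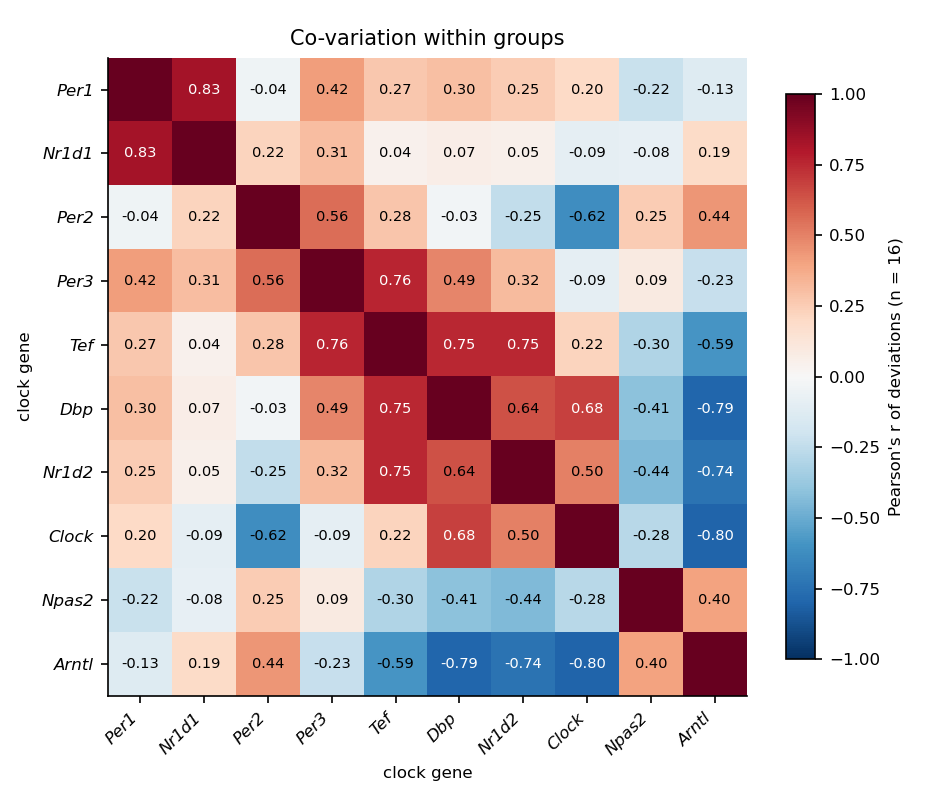
Pearson's r (colour and number) between the deviations of each pair of clock genes from their group means, over 16 libraries. Arntl is negative with Clock (-0.80), Dbp (-0.79) and Nr1d2 (-0.74), and Per1 is positive with Nr1d1 (0.83).

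**Figure D4:**
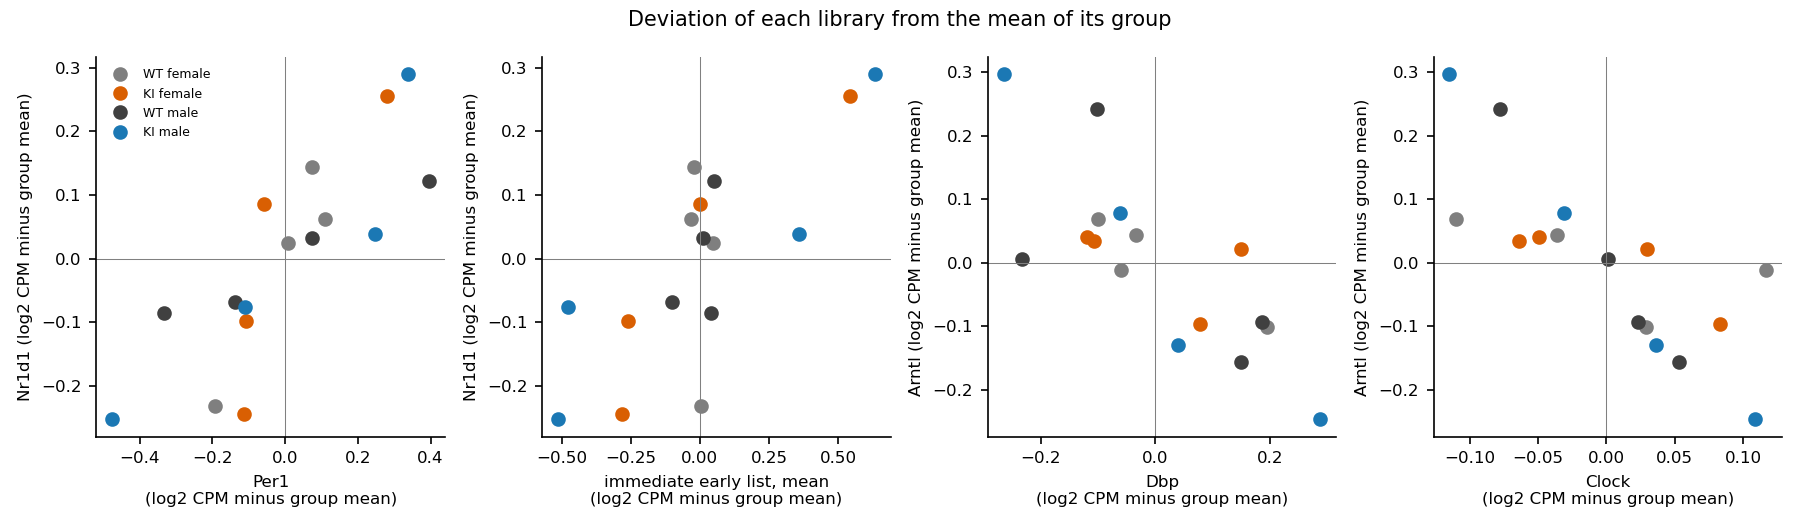
Deviation of each library from its group mean in log2 CPM, 1 point per library, coloured by group. From left to right, Nr1d1 against Per1 (r = 0.83), Nr1d1 against the mean of 20 immediate early genes (r = 0.78), Arntl against Dbp (r = -0.79) and Arntl against Clock (r = -0.80).

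Immediate early genes were lower in APP-NL-G-F females, as Per1 and Nr1d1 were. Of 20 such genes, 15 were called lower and 2 higher in females (median log2 fold change -1.47), against 7.15% of all tested genes called. In males none was called lower and 1 higher, against 0.252% of all tested genes called. There 16 of 20 values were below 0 with a median of -0.45, while Per1 was at -0.50 and Nr1d1 at 0.35. In the interaction none was called, against 0.0274% of all tested genes, and 19 of 20 values were below 0 (median -0.91). An unadjusted p under 0.05 in edgeR's fit was found for 11 of the 20, against 5.94% of all tested genes. Over both sexes 15 were called lower and 2 (Arc and Npas4, both neuronal activity genes) higher, with a median of -0.90. The share of all tested genes called there was 8.64%. Their summed level was 13490 to 17580 CPM in WT females, 4048 to 7429 CPM in APP-NL-G-F females, 7729 to 9143 CPM in WT males and 3480 to 8056 CPM in APP-NL-G-F males. Within groups, the mean of the list had r = 0.78 with Nr1d1 and 0.73 with Per1 (rho 0.68 and 0.69, adjusted permutation p = 0.194 for both r values over 120 pairs), against 0.07 with Dbp, -0.03 with Tef and 0.25 with Arntl. For Per1 that r was -0.03 in libraries 1 to 8 and 0.76 in libraries 9 to 16, and 0.50 without the 2 libraries farthest from the list's median. For Nr1d1 it was 0.52 and 0.93, and 0.73 without those 2. The part of the immediate early list, and of the warm papain digestion that precedes the sort, in the Per1 and Nr1d1 differences was not tested.

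Per1, Per3 and Nr1d1 also followed the library number. Libraries 9 to 16 exceeded libraries 1 to 8 by 0.34 (Per1), 0.31 (Per3) and 0.18 (Nr1d1) on the log2 scale, averaged over groups, and did so in each of the 4 groups. For Per2, Dbp, Tef, Nr1d2, Arntl, Npas2 and Clock the same difference was 0.08 or less. Both sets hold 2 libraries of every group, so genotype and sex are balanced over them. With the set as a term, Per1 was also called within males (-0.50, SE 0.117, adjusted p = 0.0818, edgeR) and between the sexes in WT mice (0.55, SE 0.116, adjusted p = 0.0373).

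Of 25 further genes of the clock loop that were tested, none was called over both sexes, against 8.64% of all tested genes. Their log2 fold changes were above 0 for 10 and below 0 for 14. The cryptochromes, which repress together with the PER proteins, pointed in opposite ways: Cry1 was at -0.27 (SE 0.104, adjusted p = 0.116, edgeR) and Cry2 at 0.29 (SE 0.0897, adjusted p = 0.0503). Cry2 stood at 17.8 ± 2.11 and 19.1 ± 3.11 CPM in WT females and males and at 21.8 ± 2.77 and 23.1 ± 2.97 CPM in APP-NL-G-F females and males (SD, n = 4 each). Wee1, a cell cycle kinase under clock control, was called in females at 0.60 (SE 0.201, adjusted p = 0.0891), with 2.71 ± 0.132 CPM in WT females against 4.12 ± 0.401 CPM in the knock-in females (SD, n = 4 each). Over both sexes Wee1 was at 0.50 (SE 0.14, adjusted p = 0.0323, edgeR), not above the fold needed for a call. In males Wee1 was at 0.39 (SE 0.198, adjusted p = 0.468), and its interaction was 0.22 (SE 0.282). It was the only one of the 25 called in any of the genotype contrasts, against 7.15% of all tested genes called in females.

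Arntl2, a paralog of Arntl, had the largest value over both sexes, 0.90 (SE 0.344, adjusted p = 0.111, edgeR), and did not pass. Ciart was at -0.14 (SE 0.26), Bhlhe40 at -0.12 (SE 0.173), Bhlhe41 at -0.06 (SE 0.0498), Nfil3, the repressor that competes with DBP at D-boxes, at -0.13 (SE 0.141), Rora, the activator that competes with REV-ERB, at 0.00 (SE 0.0776), and Hlf, the third PAR bZIP factor, at 0.01 (SE 0.084). In the genotype-by-sex interaction 1 of the 25, Bhlhe40 (-0.75, SE 0.306, adjusted p = 0.737), had an unadjusted p under 0.05, against 5.94% of all tested genes.

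Usp2, a ubiquitin protease and known output of the clock, followed the Arntl axis. Over 250 pairs of a member with a partner, 1 passed: Usp2 and Arntl had r = -0.87 (rho -0.84, exact permutation within groups, adjusted p = 0.0318 and 0.0332), at -0.83 in libraries 1 to 8 and -0.93 in libraries 9 to 16, and -0.79 without the 2 farthest libraries. Usp2 had r = 0.86 with Nr1d2, 0.74 with Dbp and 0.73 with Clock (adjusted permutation p = 0.0848, 0.194 and 0.12). Its genotype difference over both sexes was -0.20 (SE 0.0645, adjusted p = 0.0584, edgeR), under the fold needed for a call.

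Ranked against 9410 genes with a mean of at least 3 log2 CPM, the members with the strongest r ranked as follows. Arntl had the second lowest r with Dbp (rank 2 from the lowest), and Tef stood at rank 26 from the highest. For Arntl, Clock ranked 41, Dbp 45 and Nr1d2 98 from the lowest. For Per1, Nr1d1 ranked 30 from the highest. Other members lay in the middle of these orders, such as Per1 for Arntl (4802 from the highest), Nr1d1 for Dbp (4760) and Per2 for Per1 (4833). The non-member genes most like Arntl were Rusc2, Shc3, Ube2o, Fam163b and Kbtbd11 (r 0.792 to 0.762), and the most opposite were Nf1, Herc2, Arhgap5, Adap2 and Mfap3 (r -0.904 to -0.878).

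For Dbp the most alike were Dennd2c, Herc2, Bach2, Dock10 and P2ry13 (r 0.898 to 0.818), and the most opposite were Acd, Max, Tfdp1, Samd9l and Ebna1bp2 (r -0.904 to -0.697). Herc2 was thus among the 5 most opposite to Arntl and among the 5 most like Dbp. For Per1, Mef2d, Gm45221, Disc1, Rab43 and Gm45222 were the most alike (r 0.91 to 0.896), and 0610030E20Rik, Hdac2, Slc25a51, Bms1 and Crtap the most opposite (r -0.852 to -0.807). Each r is over 16 libraries that share their preparation and depth, and is given as a description.

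Glucocorticoid hormones follow a daily rhythm and induce Per1, so 12 of their known targets were read as well. Over both sexes 3 were called lower in APP-NL-G-F microglia: Sgk1, a kinase, by -0.67 (SE 0.126, adjusted p = 0.00258, edgeR), Tsc22d3, the anti-inflammatory protein GILZ, by -0.52 (SE 0.158, adjusted p = 0.0465), and Cdkn1a, a cell cycle inhibitor, by -0.51 (SE 0.14, adjusted p = 0.0267). None was called higher, and the median of the 12 was -0.32. Of all tested genes, 8.64% were called over both sexes in either direction. In females the same 3 genes were called, at -0.99 (Sgk1), -0.84 (Tsc22d3) and -0.68 (Cdkn1a), and in males none was. The shares of all tested genes called were 7.15% in females and 0.252% in males. Sgk1 stood at 608 ± 66.1 CPM in WT females and 306 ± 58.3 CPM in APP-NL-G-F females (SD, n = 4 each). Fkbp5, a classical target of the receptor, had a female difference of 0.12 (SE 0.369) and a male difference of -1.20 (SE 0.375, adjusted p = 0.211). Within groups, r with the mean of the list was 0.11 for Per1 (0.92 in libraries 1 to 8 and 0.33 in 9 to 16) and 0.08 for Nr1d1 (0.58 and 0.08). Single targets differed, with r for Per1 from -0.52 (Sult1a1) to 0.70 (Sgk1), and Sgk1 at 0.65 with Nr1d1.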

How the data were processed

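RNA of CD11b-sorted OB microglia was sequenced in 16 libraries, 4 for each genotype and sex. The deposited values are raw counts per gene, which the authors made with STAR on GRCm39. The strand setting is not stated. Groups and replicate numbers were taken from the sample titles.

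Counts were scaled by TMM and tested with edgeR (4.0.16, R 4.3.3), two-sided quasi-likelihood tests with Benjamini-Hochberg adjustment over the 18227 genes that reached 5 counts in 50% or more of the 16 libraries and held 99.86% of all counts. The test over both sexes had sex as a term and the other contrasts came from 1 fit of the 4 groups. A gene was called at FDR under 0.1 and an absolute log2 fold change over 0.5. Depth limits the lowest member, Npas2, which had 32 to 106 counts per library. Correlations used log2 CPM (prior count 2) minus the group mean, with exact two-sided permutation over the 331776 orders within groups.

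The members, gene lists and tests were chosen with earlier results of these data known, and all 10 members are described. The genes named by likeness were the 5 highest and 5 lowest r. The pairs with partners and lists, and Per1 as a reference for likeness, were added after values were seen. Alternatives were other normalizations, filters, thresholds and tools (DESeq2 1.42.0, limma 3.58.1), a replicate block, a term for the library set and leaving out each library. The edgeR contrasts over both sexes, within females and for the interaction were run on simulated counts, and the other steps were not. Among 24 pairs of replicates, at most 4.04% of genes had equal counts, so none was a repeat.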

Additional observations from a re-analysis of the deposited data

Results flagged for a closer look

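In 3 of 44 groups of 4 values, 1 library stood far from the other libraries of its group, against 2.2 such groups given by chance. Per1 in APP-NL-G-F females was highest in replicate 4 (112.5 CPM, the next being 89.1 CPM), a gap of 0.871 of the group's range. Nr1d2 in APP-NL-G-F males was lowest in replicate 4 (56.99 CPM, the next being 67.67 CPM), a gap of 0.831 of the range. Arntl in APP-NL-G-F females was lowest in replicate 1 (21.21 CPM, the next being 23.05 CPM), a gap of 0.858 of the range.

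For 4 genes every APP-NL-G-F female lay on one side of the WT mean of its sex and every APP-NL-G-F male on the other, with a female minus male difference in genotype effect of -1.056 for Nr1d1, -0.682 for Nr1d2, -0.586 for Per2 and -0.242 for Tef on the log2 scale. The test of that difference passed for Nr1d1 (adjusted p = 0.0942 by edgeR) and not for Nr1d2, Per2 or Tef (adjusted p = 0.331, 0.771 and 0.834).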

How the results depend on the processing

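Of 1580 recomputed values of single clock genes, 1491 had the same call and sign, 25 gained a call, 16 lost one (all of them the Nr1d1 interaction) and 48 uncalled values changed sign, none above 0.24 in size. No called value changed sign, and the cause of these changes was not tested. The replicate numbers did not pair the libraries (6 of 24 same-numbered correlations over 0.1, from -0.33 to 0.29). With the replicate block the Per2 genotype value was 0.006, Per1 was called between the sexes in WT (1 clock gene called), and 3 genes in all were called in the interaction. Counting depth limits Npas2 the most.

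Clock genes called over both sexes were 2 with FDR alone, 2 within libraries 1 to 8, and 1 to 2 with 1 library left out (the second, Npas2, was called without WT male replicate 1 or 4, WT female replicate 4, or replicate 3 of the APP-NL-G-F males). Within females 3 were called, Npas2 being added, without a filter, with DESeq2, with limma voom and in a fit of females alone, and 2 to 3 with 1 library left out (3 without WT female replicate 4, or replicate 3 of the APP-NL-G-F males). Within males 1 was called with the library set as a term. In the interaction 0 were called at FDR under 0.05, with upper-quartile normalization, with filterByExpr, with limma voom and within libraries 9 to 16, 4 without a filter and 4 within libraries 1 to 8, and 0 to 1 with 1 library left out. The Nr1d1 interaction was called without WT female replicate 3 or 4, or without replicate 4 of the females or 1 of the males of APP-NL-G-F, and in no other such fit. Between the sexes in WT, 1 was called without a filter, with limma voom and with the library set as a term, and 2 with DESeq2. Between the sexes in APP-NL-G-F, 1 was called without a filter. By Spearman's rho 8 pairs of members passed.

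Over all genes, 1574 were called over both sexes, 2692 with FDR alone, 2503 within libraries 1 to 8, 80 within libraries 9 to 16 and 1101 to 2187 with 1 library left out. In females 1304 were called, 833 at FDR under 0.05, 2136 without a filter and 594 (without WT replicate 1) to 2110 (without WT replicate 4) with 1 library left out. In males 46 were called, 8 at FDR under 0.05, 880 without a filter, 268 with DESeq2, 84 with limma voom, 141 with the library set as a term, 4 in a fit of males alone and 5 (without APP-NL-G-F replicate 2) to 603 (without APP-NL-G-F replicate 3) with 1 library left out. In the interaction 5 were called, 2 at FDR under 0.05, 3 with upper-quartile normalization or filterByExpr, 470 without a filter, 76 with DESeq2, 1 with limma voom, 293 within libraries 1 to 8, 1 within libraries 9 to 16 and 1 to 43 (without WT female replicate 4) with 1 library left out. Between the sexes 171 were called in WT, 68 at FDR under 0.05, 794 without a filter, 275 with DESeq2 and 13 (without male replicate 2) to 342 (without WT female replicate 4) with 1 library left out. In APP-NL-G-F 10 were called between the sexes, 50 without a filter and 3 to 8 with 1 library left out.

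The uncalled values that changed sign were small. Ranges are over all fits with 1 library left out. For Per2 over both sexes they were 0.007 with upper-quartile normalization, 0.0 without a filter, 0.001 with filterByExpr, 0.052 with limma voom, 0.005 without a sex term, 0.01 within libraries 1 to 8 and -0.098 to 0.096 with 1 left out. For Clock they were -0.001 with limma voom, -0.023 within libraries 9 to 16 and -0.009 to 0.028 with 1 left out, and for Arntl -0.071 within libraries 1 to 8 and -0.024 to 0.069 with 1 left out. Dbp ran from -0.012 to 0.1 and Nr1d2 from -0.009 to 0.164. Within females Clock ran from -0.055 to 0.014 and Tef from -0.095 to 0.007, and within males Arntl ran from -0.207 to 0.004. In the interaction Per3 was at 0.235 and Tef at 0.018 within libraries 9 to 16, and Per3 ran from -0.277 to 0.016 with 1 left out. Between the sexes in WT, Dbp was at 0.007 with limma voom and ran from -0.122 to 0.017, Npas2 from -0.251 to 0.067, Per2 from -0.027 to 0.288 and Tef from -0.04 to 0.076. Between the sexes in APP-NL-G-F, Clock ran from -0.044 to 0.017.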
